A study of Drosophila melanogaster with 30 samples.

Results

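The genes described here are the digestive serine protease genes of Drosophila melanogaster, taken as every gene whose FlyBase symbol starts with Jon and a digit, ends in Try, or starts with Ser and a digit. This rule gave 31 of the 17807 genes counted, namely 16 Jonah genes, 11 trypsin genes and 4 Ser genes (Ser6, Ser7, Ser8 and Ser12). The rule used names alone and no measured value.

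Serine proteases of the trypsin and chymotrypsin fold cut dietary protein in the gut lumen, and they are made as inactive zymogens and secreted by enterocytes of the midgut. Trypsins cut after lysine or arginine. The Jonah genes are a family of chymotrypsin-like and related proteases, known as abundant transcripts of the larval and adult fly midgut, that stand in small groups of tandem copies and carry their cytological position in their names. Close copies of this kind share sequence, so that reads from one copy can be hard to assign.

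The study compared 2 library protocols on flies exposed to cold or heat. The flies were wild-type adult females of the Canton S laboratory strain reared at 25°C, and each pool held 6 whole flies in 1 vial. The control stayed at 25°C and the others were brought to 4°C, 10°C, 34°C or 37°C at 0.25°C per min, with 3 pools per temperature. Each pool gave 1 polyA-selected (polyA+) library and 1 rRNA-depleted (rRNA−) library, 30 in all. The sample records give a hold of 5 min at 34°C and 37°C and of 0 min at 4°C and 10°C, whereas the written methods give the hold of 5 min at 4°C and 37°C, and a legend gives another number of flies per pool, so exposure length and pool size are uncertain. The polyA+ libraries were made from more than 0.8 µg of RNA and read at 150 bp, and the rRNA− libraries from 0.3 µg and read at 85 bp on another sequencer. RNA amount, sequencer and original read length therefore cannot be told apart from the library protocol. All RNA is from whole flies, in which more midgut cells and more RNA per cell cannot be told apart.

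The authors deposited read counts per gene in 2 forms. The full counts hold all reads, and the equalized counts were made after rRNA reads were removed and polyA+ reads were trimmed to 85 bp and subsampled so that both libraries of a pair had equal depth. Equalized counts are used below unless full counts are named. Their totals ran from 2067003 to 5541348 per rRNA− library (median 4033358) and from 2188773 to 5925256 per polyA+ library (median 4008813). Levels are given as CPM, counts scaled to a common library size by TMM within a library type, and levels of different genes are compared only as TPM, which also divides by exon length. Markers of males, in 6 genes, summed to at most 1.35 CPM in any library. Of 5 midgut enterocyte markers, all had counts in every rRNA− library, whereas in polyA+ libraries Npc1b was at 0 in 4 of 15, Vha100-4 in 3, nub in 5 and mex1 in 1.

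The genes lie in few places of the dm6 assembly. All 11 trypsin genes stand within 2R:11336840-11357537, in the Ensembl release 115 annotation, among them the pair lambdaTry and kappaTry and the run etaTry, thetaTry and zetaTry. The Jonah genes stand as Jon25Bi to Jon25Biii on 2L:4949941-4955144, Jon65Ai to Jon65Aiv on 3L:6039155-6054443, Jon66Ci and Jon66Cii on 3L:8391540-8393649, Jon99Ci to Jon99Ciii on 3R:29922216-29926189 and Jon99Fi and Jon99Fii on 3R:30487016-30489895, with Jon44E and Jon74E alone. Ser6 and Ser7 lie apart on the X, Ser12 on 2L and Ser8 on 2R. Jon44E, deltaTry and Ser8 overlap a gene on the opposite strand (CG8586, CG13202 and ATP8A). Whether strand was used in counting is not given in the sources used here, and reads of these pairs may not be told apart.

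Jonah genes and trypsins were among the abundant transcripts of these flies. Together the 31 genes took 0.156% to 1.05% of the equalized counts of an rRNA− library (mean 0.677% ± 0.278, SD, n = 15) and 0.0898% to 2.29% of a polyA+ library (0.711% ± 0.671, SD, n = 15). By mean TPM of equalized counts the leading Jonah genes in rRNA− libraries were Jon65Aiv (1684 TPM), Jon65Aiii (1527 TPM) and Jon99Cii (1185 TPM). Of their full counts Jon65Aiv kept 56837 of 56847, Jon99Cii 40012 of 58729 and Jon99Ciii 40254 of 81459. The order of the Jonah genes may therefore be another in full counts, from which TPM was not computed, in either library type. The leading trypsins were alphaTry (1126 TPM), epsilonTry (942 TPM) and betaTry (910 TPM), next to each other on 2R. The Ser genes were far lower, from 23.9 TPM for Ser7 to 2.27 TPM for Ser12. In polyA+ libraries the order of the leading genes was another, with Jon25Biii at 1205 TPM, Jon65Aiv at 1194 TPM and alphaTry at 1188 TPM, and these 3 did not stand apart from each other beyond their spread over libraries (11.7 to 4467 TPM for Jon25Biii). Jon66Cii and Jon74E were nearly silent, with 5 and 22 equalized counts in all rRNA− libraries and 3 and 30 in all polyA+ libraries, and gammaTry had none. The low-count filter of edgeR kept 27 of the 31 genes in rRNA− libraries (14 Jonah, 10 trypsin, 3 Ser) and 28 in polyA+ libraries (14, 10 and 4), and the genes it left out were gammaTry, Jon66Cii and Jon74E, with Ser8 in rRNA− libraries.

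The equalized table held far fewer reads than the full table for some of these genes, and the sources used here do not give the reason. In rRNA− libraries the median gene with at least 100 full counts kept 99.9% of them in the equalized table, and 3.51% of such genes kept less than 90% of that median share. Among the digestive proteases, gammaTry kept 0% (0 of 827 counts), deltaTry 10.9% (192 of 1765), Jon99Ciii 49.4% (40254 of 81459), Jon99Cii 68.1% (40012 of 58729) and alphaTry 82.7% (36858 of 44563). Jon66Ci, Ser6, Jon99Fii and Jon99Fi kept 90.6%, 91.6%, 92.2% and 93.0%, betaTry 98.0%, and the other genes with at least 20 counts kept at least 99.8%. In polyA+ libraries the subsampling left 16.6% of full counts for the median gene but 0% for gammaTry, 2.46% for deltaTry, 7.86% for Jon99Cii and 9.16% for Jon99Ciii. Jon99Fi kept 14.1%, betaTry 15.1%, Jon99Fii 15.4%, alphaTry 16.8% and epsilonTry 17.6%. The share kept differed between polyA+ libraries (8.90% to 32.5% for epsilonTry), so these summed shares also depend on the libraries in which a gene was high. A summed share near the median gene therefore does not show that alphaTry kept all its reads. Jon99Ci, in the same group as Jon99Cii and Jon99Ciii, kept 99.9% in rRNA− libraries. The share kept was not the same in every library: for Jon99Cii it ran from 25.2% to 78.3% and for deltaTry from 0% to 21% over the rRNA− libraries. The level of these copies in the equalized table is therefore a lower count than the reads first given to them, by an amount that differs between libraries.

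**Figure D1:**
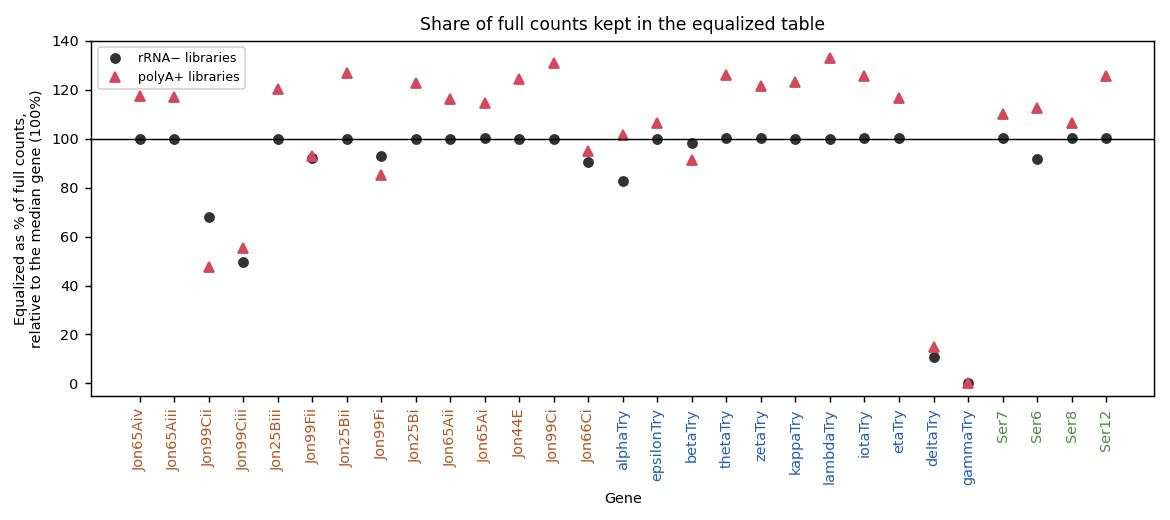
Equalized counts as a percent of full counts, summed over 15 libraries and divided by the same percent of the median gene (line at 100%), for 29 genes in rRNA− (circles) and polyA+ (triangles) libraries; Jon66Cii and Jon74E, with few counts, are left out. gammaTry and deltaTry, then Jon99Cii and Jon99Ciii, lie below the other genes in both library types.

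Within the trypsin cluster the full counts of the copies changed places between libraries. gammaTry and deltaTry are known as near-identical copies, and CG30025 (2R:11353564-11354373) and CG30031 (2R:11350811-11351621) between them are known as further copies. In rRNA− libraries gammaTry held full counts in 14 of 15 libraries and CG30025 and CG30031 in 0 of 15. In polyA+ libraries gammaTry held full counts in 4 of 15, pools 2 and 3 at 4°C (122 and 103) and pools 1 and 3 at 25°C (283 and 311), and CG30025 held none in these libraries and in pool 2 at 25°C. CG30025 held 133 to 672 full counts in the other 10 polyA+ libraries, and CG30031 held none in 4 of 15. In pool 2 at 4°C gammaTry and deltaTry both stood at 122 full counts. Counts of any 1 of these copies cannot be read as its own level. Their sum over the 4 copies, in CPM of full counts with no further scaling, was 10.3, 5.34 and 9.24 in pools 1, 2 and 3 at 25°C in rRNA− libraries, 27.3, 25.0 and 37.0 at 10°C and 38.8, 21.3 and 18.8 at 37°C, and neither the 10°C nor the 37°C values overlapped those at 25°C. At 4°C the sum was 11.2, 6.46 and 9.20 and at 34°C 11.7, 41.4 and 21.2. These values divide by full totals, which hold reads removed before equalizing, in a share that differed between rRNA− libraries. At 4°C the equalized total was 3633160 of 8457451 full counts in pool 1 and 3786589 of 4241358 in pool 3. The sums in these 2 libraries were 95 and 39 counts. In polyA+ libraries the sum was 27.5, 12.0 and 23.2 at 25°C and 66.8, 66.1 and 109 at 37°C, again without overlap.

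Cold at 10°C and heat at 34°C or 37°C were accompanied by higher levels of nearly all Jonah and trypsin genes than at 25°C, but few passed the test gene by gene. In rRNA− libraries the genes took 0.635%, 0.264% and 0.424% of counts in pools 1, 2 and 3 at 25°C, against 1.05%, 0.881% and 0.930% at 10°C, 0.642%, 0.896% and 0.572% at 34°C and 1.03%, 0.788% and 0.885% at 37°C. At 4°C they took 0.629%, 0.373% and 0.156%, within and below the range at 25°C. Between 4°C and 10°C, both cold shocks, the ranges of the share did not overlap in rRNA− libraries. In polyA+ libraries they did, narrowly, with 0.383%, 0.142% and 0.108% at 4°C and 0.835%, 1.54% and 0.381% at 10°C. Summed equalized counts of Jonah genes were 1.80 to 3.06 times those of trypsins over the 15 rRNA− libraries. Over the 15 polyA+ libraries they were 1.14 to 3.28 times those of trypsins. These counts are not divided by exon length. Reads of some copies, such as Jon99Cii and Jon99Ciii, are partly missing from them, by a share that differs between libraries.

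**Figure D2:**
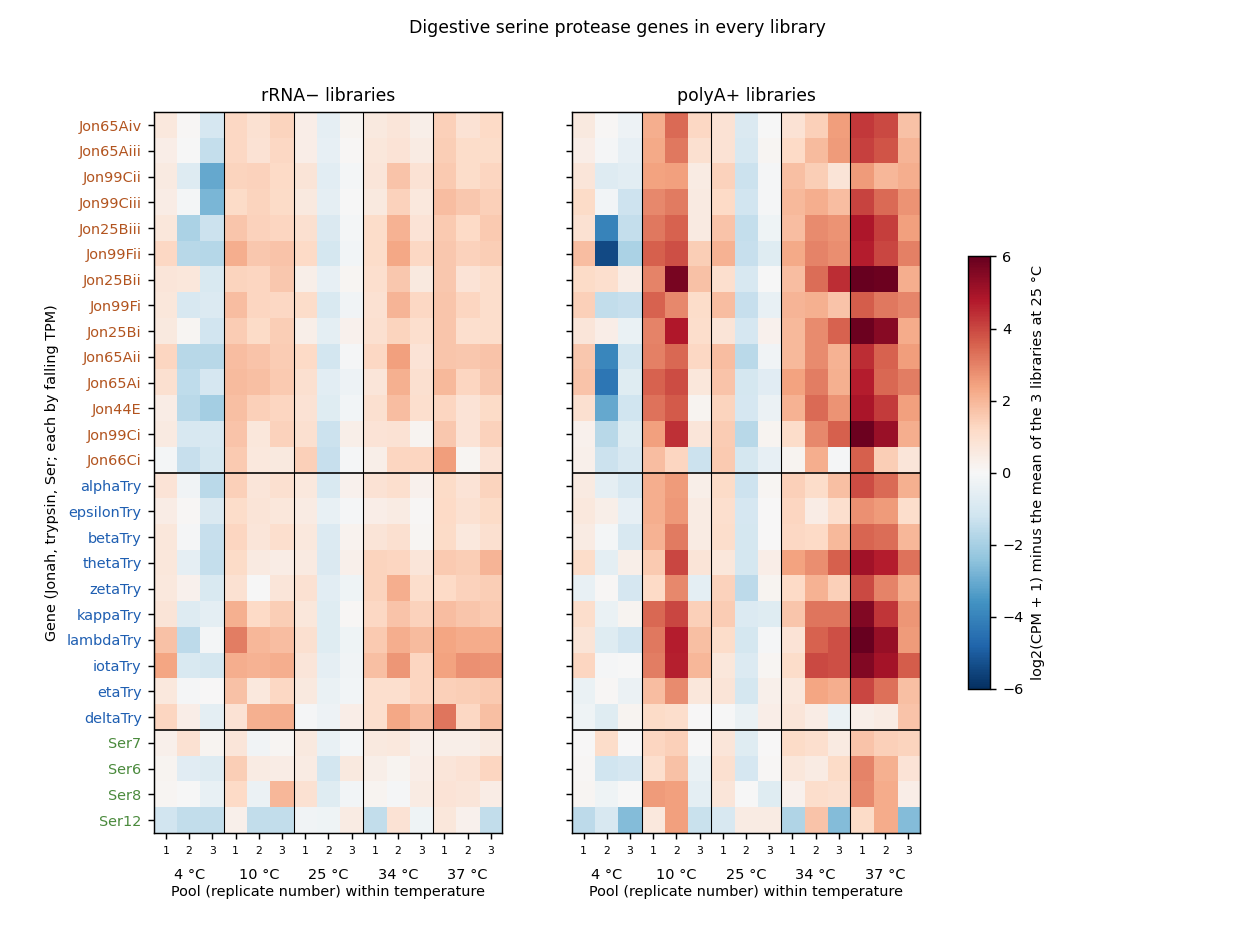
Level of each gene in every library, as log2(CPM + 1) minus the mean of the 3 libraries at 25°C of the same type, for 28 genes (rows; Jonah, trypsin and Ser, each by falling TPM) and 15 libraries per type (columns; 3 pools at each temperature). Pool 2 at 25°C is bluer than the other pools at 25°C in both types, the polyA+ libraries of pools 1 and 2 at 37°C and pool 2 at 10°C are the darkest red, and the polyA+ library of pool 2 at 4°C is dark blue for 5 Jonah genes.

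At 4°C no digestive protease gene was called in either library type. Calls rest on edgeR's quasi-likelihood test fitted to the 15 libraries of 1 type, with p adjusted over all genes tested (Benjamini-Hochberg) under 0.05 and a fold of at least 2. Counts from DESeq2, from alternative settings or with a pool left out are given without a share of all genes. Such counts cannot be set against a background. In rRNA− libraries 0 of 27 were called at 4°C, where 0.0103% of the 9718 genes tested were called higher and 0% lower. At an unadjusted p under 0.05 there was 1 member, against 4.12% of all genes. DESeq2's Wald test called 0 as well. In polyA+ libraries 0 of 28 were called (0% of 9257 genes higher and 0% lower). An unadjusted p under 0.05 was found for 0, against 0.627% of all genes, and DESeq2 called 0. The median log2 fold change of the members was -0.21 in rRNA− and -0.37 in polyA+ libraries (-0.01 for all genes in both), and 21 of the members tested were below 0 in each. No member lay with all 3 libraries above all 3 at 25°C, as 3.97% of genes did in rRNA− and 2.01% in polyA+ libraries. In rRNA− libraries Jon65Aiv, the leading Jonah gene in equalized counts, stood at 969, 666 and 310 CPM in pools 1, 2 and 3 at 4°C. At 25°C it stood at 829, 434 and 698 CPM, and these ranges overlap widely. The direction at 4°C rested on single pools: the members' median moved to 0.21 or to -1.05 in rRNA− libraries, and to 0.57 or to -0.88 in polyA+ libraries, when 1 pool at 4°C or 25°C was left out. Jon65Ai, a tandem neighbour of Jon65Aii, showed how far pools could differ, with 65.4, 0 and 11.5 CPM at 4°C and 66.0, 8.83 and 11.9 CPM at 25°C in polyA+ libraries. Ser12 was the member with the lowest unadjusted p at 4°C in rRNA− libraries, with 0.269, 0 and 0 CPM against 1.39, 1.37 and 2.92 CPM at 25°C (adjusted p = 1, edgeR), at the limit of detection.

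At 10°C the 2 genes called higher in rRNA− libraries were the trypsins etaTry and kappaTry. etaTry stood at 14, 5.96 and 9.48 CPM at 10°C and at 5.57, 2.35 and 2.92 CPM at 25°C, with no overlap between the groups (log2 fold change 1.43, SE 0.37, edgeR adjusted p = 0.033). kappaTry stood at 38.2, 19.2 and 24.2 CPM against 13.3, 4.31 and 8.27 CPM, again without overlap (1.65, SE 0.44, adjusted p = 0.040). The background was 0.875% of genes called higher, against these 2 of 27, and 1.23% called lower, against 0 of 27. DESeq2 called 8 of the 27, and a single edgeR fit of all 30 libraries 0. The fold changes of the members were larger than their calls show, with a median log2 of 1.19 against 0.01 for all genes and 26 of 27 above 0, Ser12 being the exception. All 3 libraries at 10°C lay above all 3 at 25°C for 20 of the 27 members, 12 of 14 Jonah and 8 of 10 trypsin genes, against 12.3% of all genes. Jon65Aiv stood at 1512, 1204 and 1574 CPM at 10°C, above each value at 25°C, with a log2 fold change of 1.13 (SE 0.34, adjusted p = 0.063) that did not pass. Jon65Aiii stood at 1314, 1008 and 1336 CPM against 740, 402 and 590 CPM, without overlap, and did not pass either (1.08, SE 0.35, adjusted p = 0.083). Both calls were lost when pool 1 or pool 3 at 10°C, or pool 2 or pool 3 at 25°C, was left out (0 of 27 called in each case), and 5 members were called without pool 1 at 25°C.

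In polyA+ libraries at 10°C 0 of 28 members were called, as were 0% of genes higher and 0% lower, although the members' median log2 fold change was 2.24 (0.10 for all genes) and 28 of 28 were above 0. At an unadjusted p under 0.05 edgeR counted 19 of 28 members, against 6.31% of all genes, and DESeq2 called 8. All 3 libraries lay above those at 25°C for 7 members (Jon25Bi, Jon25Bii, Jon65Aiii, Jon65Aiv, thetaTry, iotaTry and lambdaTry), against 3.18% of genes. Pool 3 was the lowest of the 3 pools at 10°C for 28 of 28 members, against 43.6% of all genes. Jon25Bii, for example, stood at 161, 1059 and 67.9 CPM in pools 1, 2 and 3 and at 39.9, 9.34 and 19.0 CPM at 25°C. The pools at 10°C thus differed by more than an order of magnitude for this gene while all lay above the control.

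At 34°C 0 members were called in either type. In rRNA− libraries 0 of 27 passed (0.679% of genes higher and 0.144% lower). An unadjusted p under 0.05 in edgeR was found for 9, against 21.8% of all genes, and DESeq2 called 6. The median log2 fold change was 1.06 (-0.06 for all genes), 27 of 27 were above 0, and 12 members lay wholly above 25°C (5 Jonah and 7 trypsin genes) against 13.4% of genes. The 3 most abundant trypsins were not among the 12: alphaTry stood at 748, 817 and 487 CPM against 629, 217 and 488 CPM at 25°C, which overlap. Of the trypsins, zetaTry had 28.6, 52.8 and 24.0 CPM at 34°C and 21.3, 6.67 and 8.76 CPM at 25°C, with a log2 fold change of 1.52 (SE 0.47, adjusted p = 0.11). In polyA+ libraries 0 of 28 passed (0.0864% of genes higher and 0% lower). An unadjusted p under 0.05 was found for 12, against 7.18% of all genes, and DESeq2 called 3. There the median log2 fold change was 1.71 (0.02 for all genes), 28 of 28 were above 0, and 13 members lay wholly above 25°C against 8.18% of genes. Without pool 1 at 25°C, 2 members were called in rRNA− libraries.

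At 37°C the trypsins etaTry, kappaTry and deltaTry were called higher in rRNA− libraries, 3 of 27 members, where 2.06% of genes were called higher and 0.494% lower. etaTry stood at 10.9, 11.3 and 12.3 CPM, close together and above the 3 values at 25°C (log2 fold change 1.65, SE 0.36, edgeR adjusted p = 0.015). kappaTry stood at 31.1, 26.8 and 25.8 CPM (1.69, SE 0.43, adjusted p = 0.040). deltaTry stood at 12.8, 2.57 and 4.25 CPM against 0.398, 0.196 and 0.973 CPM at 25°C (3.63, SE 0.92, adjusted p = 0.039). The deltaTry values rest on 52, 10 and 17 counts against 2, 1 and 4, after most of its reads were left out of the equalized table. In full counts deltaTry held 347, 127 and 159 counts at 37°C and 41, 38 and 69 at 25°C, and its log2 fold change was 2.31 (adjusted p = 0.039). As full counts changed places between the copies, the deltaTry values cannot be read as the level of that gene alone. DESeq2 called 10 members, and a single edgeR fit of all 30 libraries called 1. An unadjusted p under 0.05 in edgeR was found for 14 of 27, against 18.5% of all genes. No Jonah gene was called, although 14 of 14 were above 0, with log2 fold changes between 0.97 and 1.56. All 10 trypsins tested, 10 of 14 Jonah genes and Ser6 lay wholly above 25°C, 21 of 27 members, against 12.6% of genes. The median log2 fold change was 1.21 for the 27 members and -0.05 for all genes, 1.2 for Jonah genes and 1.64 for trypsins.

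The calls at 37°C in rRNA− libraries also depended on single pools. With pool 2 or pool 3 at 25°C or pool 3 at 37°C left out, 0 members were called, and 1 without pool 1 at 37°C. The largest trypsins did not pass. epsilonTry stood at 830, 681 and 793 CPM against 514, 263 and 346 CPM at 25°C (log2 fold change 1.04, SE 0.29, adjusted p = 0.059), and alphaTry at 911, 721 and 1027 CPM against 629, 217 and 488 CPM (0.99, SE 0.53, adjusted p = 0.35). betaTry stood at 962, 669 and 839 CPM against 661, 240 and 500 CPM (0.82, SE 0.47, adjusted p = 0.39). The Jonah genes Jon65Aiv and Jon65Aiii had 1725, 1162 and 1443 CPM and 1539, 1193 and 1208 CPM at 37°C, above all values at 25°C (1.14, SE 0.34, adjusted p = 0.075 and 1.19, SE 0.35, adjusted p = 0.078). Jon99Cii, whose reads were partly left out, stood at 1138, 815 and 945 CPM against 658, 244 and 353 CPM (1.21, SE 0.68, adjusted p = 0.38). The comparisons at 4°C, 10°C, 34°C and 37°C share the 3 control libraries of each type, so that a low or high control pool enters all of them.

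**Figure D3:**
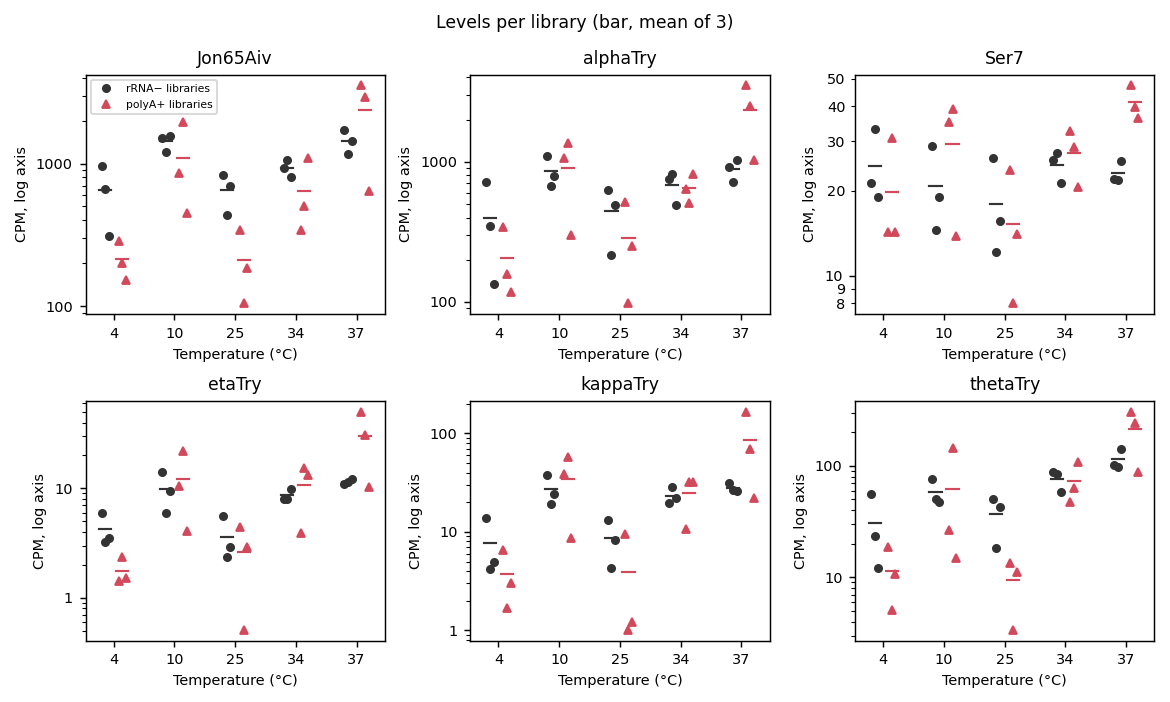
CPM (log axis) by temperature in rRNA− (circles) and polyA+ (triangles) libraries, with 1 point per library and a bar at the mean of 3. The genes are the Jonah gene, trypsin and Ser gene leading by TPM of equalized counts, and 3 trypsins named in the text. In rRNA− libraries the etaTry and kappaTry points at 10°C and 37°C lie above those at 25°C, and the polyA+ points of 1 temperature are spread more widely than the rRNA− points.

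In polyA+ libraries 12 of 28 members were called higher at 37°C, 5 Jonah and 7 trypsin genes, where 3.76% of genes were called higher and 0.162% lower. thetaTry had the smallest p, with 306, 243 and 87.2 CPM against 13.6, 3.40 and 11.2 CPM at 25°C (log2 fold change 4.50, SE 0.89, edgeR adjusted p = 0.023). Jon65Aiii stood at 2376, 1845 and 556 CPM against 250, 68.6 and 146 CPM (3.36, SE 0.70, adjusted p = 0.028), and Jon65Aiv at 3540, 2942 and 641 CPM against 344, 104 and 185 CPM (3.49, SE 0.75, adjusted p = 0.028). Pools 1 and 2 at 37°C were several times higher than pool 3 in each of these genes, and pool 3 still lay above the control. Jon25Bi stood at 2240, 1685 and 177 CPM against 64.1, 18.0 and 44.5 CPM (5.02, SE 1.05, adjusted p = 0.028), and Jon25Bii at 1697, 1194 and 91.1 CPM against 39.9, 9.34 and 19.0 CPM (5.45, SE 1.22, adjusted p = 0.030). iotaTry, at the other end of the trypsin cluster from lambdaTry, stood at 82.2, 56.1 and 21.1 CPM against 1.91, 0 and 0.972 CPM (5.79, SE 1.23, adjusted p = 0.028). These control values of iotaTry are 9, 0 and 4 counts, and the size of its fold is uncertain. The other genes called were Jon99Ciii, alphaTry, betaTry, etaTry, kappaTry and lambdaTry, with log2 fold changes from 2.86 (betaTry) to 5.42 (lambdaTry). Of the 28 members, 28 were above 0, with a median of 3.24 (-0.18 for all genes), 3.39 for Jonah genes and 3.28 for trypsins, and 23 lay wholly above 25°C against 18.9% of genes. Ser7, the most abundant Ser gene, stood at 47.3, 39.8 and 36.4 CPM against 23.8, 7.98 and 14.1 CPM, without overlap, but was not called (1.43, SE 0.49, adjusted p = 0.098).

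The polyA+ values at 37°C moved with a feature of the libraries. In 5 polyA+ libraries (pool 2 at 10°C, pools 2 and 3 at 34°C and pools 1 and 2 at 37°C) histone genes held 0.00173% to 0.00476% of full counts, against 0.0144% to 0.0240% in the other 10. The digestive proteases took 0.605% to 2.29% of equalized counts in these 5 libraries and 0.0898% to 0.835% in the other 10. The summed level of 4 muscle markers was 8924 to 15063 CPM in the 5 libraries and 1014 to 2327 CPM in the other 10. With only the other 10 libraries, chosen after the data were seen, the members' median log2 fold change at 37°C was 1.92 with 27 of 28 above 0. That set holds 1 library at 37°C, assumed to vary like the other groups, so its count of 0 calls does not bear on the result. The part of these features in the result was not tested. With all 15 libraries but pool 3 at 37°C, 19 members were called, and with pool 1 or 2 at 37°C or pool 2 or 3 at 25°C left out 0 were. DESeq2 called 24 members, a single edgeR fit of all 30 libraries 25, and edgeR with library totals in place of TMM called 1. The share of all genes called in these alternatives is not given here, so these counts have no background beside them.

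**Figure D4:**
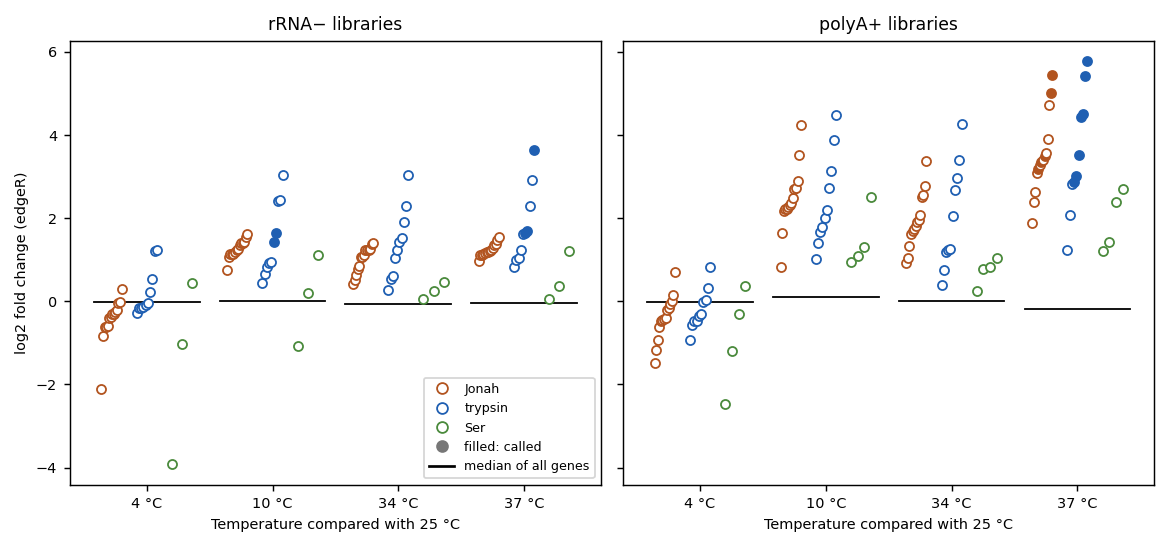
log2 fold change of each gene tested against 25°C, in rRNA− (27 genes) and polyA+ (28 genes) libraries, by class; filled points were called and the bars mark the median of all genes. At 10°C, 34°C and 37°C all points but Ser12 at 10°C in rRNA− libraries lie above 0, and filled points appear only at 10°C and 37°C in rRNA− and at 37°C in polyA+ libraries.

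Across all temperatures at once, 2 of 27 members were called in rRNA− libraries (etaTry, adjusted p = 0.026, and kappaTry, adjusted p = 0.031), where 6.83% of genes were called, and 3 of 28 in polyA+ libraries (thetaTry, adjusted p = 0.039, Jon65Aiii, 0.041, and Jon25Bi, 0.042), where 1.19% were (edgeR, test of any difference between temperatures). DESeq2's likelihood ratio test called 14 and 21, and a single edgeR fit of all 30 libraries 0 and 21. In rRNA− libraries 0 were called without pool 2 at 4°C, pool 3 at 10°C, pool 3 at 25°C or any 1 pool at 37°C, 1 without pool 2 at 25°C or at 34°C, 4 without pool 1 at 25°C, 8 without pool 3 at 4°C and 15 without pool 1 at 4°C. In polyA+ libraries 12 to 17 were called without pool 2 or 3 at 10°C or pool 3 at 37°C, and 0 or 1 with any other pool left out. Heat set against cold, the mean of 34°C and 37°C minus the mean of 4°C and 10°C, gave 0 calls in both types, where 1.06% of genes were called higher and 0.628% lower in rRNA− and 0.562% and 0.108% in polyA+ libraries. In rRNA− libraries 5 of 27 members had an unadjusted p under 0.05 for this contrast, against 21.1% of all genes, and DESeq2 called 2. These 5 are close to the share of all genes. In polyA+ libraries 17 of 28 had such a p, against 17.5% of all genes, and DESeq2 called 10. All members tested were above 0 in both, with a median of 0.70 in rRNA− and 1.57 in polyA+ libraries. The cold mean joins 4°C, near the control, with 10°C, above it. Without pool 1 at 4°C, in which the proteases were high, 6 members were called higher in rRNA− libraries, and in polyA+ libraries 4 were called without pool 2 at 10°C and 2 without pool 3 at 37°C.

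At 37°C the fold was larger in polyA+ than in rRNA− libraries in 27 of 28 members, but no member passed the test of that difference. At 4°C, 10°C, 34°C and 37°C 0 of 28 members had an adjusted p under 0.05 for the interaction of temperature and library type (edgeR on 30 libraries), where 0%, 0%, 0.0099% and 0.0099% of 10103 genes did. This fit took the 2 libraries of a pool as independent, and the pool was not used as a block for the interaction. At an unadjusted p under 0.05 there were 0, 3, 1 and 14 members, against 0.921%, 2.14%, 3.22% and 15.3% of all genes. DESeq2 called 0, 0, 0 and 2 members. At 37°C the median interaction of the members was -2.12 on the log2 scale, negative for a smaller fold in rRNA− libraries, against 0.13 for all genes, and 27 of 28 were below 0. Jon25Bi had the smallest p (-3.93, SE 1.08, adjusted p = 0.25), and deltaTry, whose counts cannot be read as its own level, was the only member above 0 (2.40, SE 1.10, adjusted p = 0.31). With pool 3 at 37°C left out of both types, 3 members were called with the smaller fold in rRNA− libraries.

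Averaged over temperatures, 6 of 28 members were lower in rRNA− than in polyA+ libraries and 0 were higher, where 26.5% of genes were called higher and 17.2% lower. They were Ser12 (log2 difference -2.99, SE 0.79, edgeR adjusted p = 0.0016), Ser8 (-1.60, SE 0.46, adjusted p = 0.0034), Ser6 (-1.55, SE 0.40, adjusted p = 0.0014), Jon99Ci (-1.33, SE 0.44, adjusted p = 0.0093), zetaTry (-1.02, SE 0.32, adjusted p = 0.0067) and Jon44E (-1.02, SE 0.40, adjusted p = 0.026). With the pool as a block, since each pool gave both libraries, 3 were called lower, and 3 with library totals in place of TMM. The share lower, 6 of 28, is close to the share of all genes. The called genes had means from 2.27 TPM (Ser12) to 34.6 TPM (Jon44E) in rRNA− libraries. Within that range etaTry (12.2 TPM) and kappaTry (29.6 TPM) were not called. The trypsin and the Jonah gene leading in equalized counts differed less, with -0.35 for alphaTry (SE 0.27, edgeR adjusted p = 0.25) and 0.30 for Jon65Aiv (SE 0.26, adjusted p = 0.30). Jon65Aiii, at 0.61, had an adjusted p of 0.029 but not the fold. Without pool 2 at 10°C 3 members were called lower.

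The spread between pools was large and shared by most of these genes. It was taken as the SD of log2 CPM between the 3 pools of a temperature, pooled over temperatures, for genes of at least 10 CPM on average. Each pool gave 1 library of a type, so this SD also holds differences from library preparation. In rRNA− libraries the median SD was 0.703 for 22 members and 0.227 for 7602 genes, 22 of 22 members lay above the median gene and 20 above the 90th percentile of all genes (0.462). Among these 22, iotaTry had the largest SD (1.11) and Ser7 the smallest (0.390), next to epsilonTry (0.404). The SD of iotaTry rests in part on few counts, 57, 2 and 2 in pools 1, 2 and 3 at 4°C. Jonah genes had a median of 0.792 and trypsins of 0.645. In polyA+ libraries, where all genes varied more (median 0.605), the members had a median of 1.22, from 0.595 for Ser7 to 2.08 for Jon99Fii. Jon99Fii, next to Jon99Fi on 3R, stood at 203, 0.340 and 14 CPM in the 3 polyA+ pools at 4°C and at 301, 38.5 and 37.3 CPM in the rRNA− libraries. The value of 0.340 CPM rests on 3 counts or fewer.

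**Figure D5:**
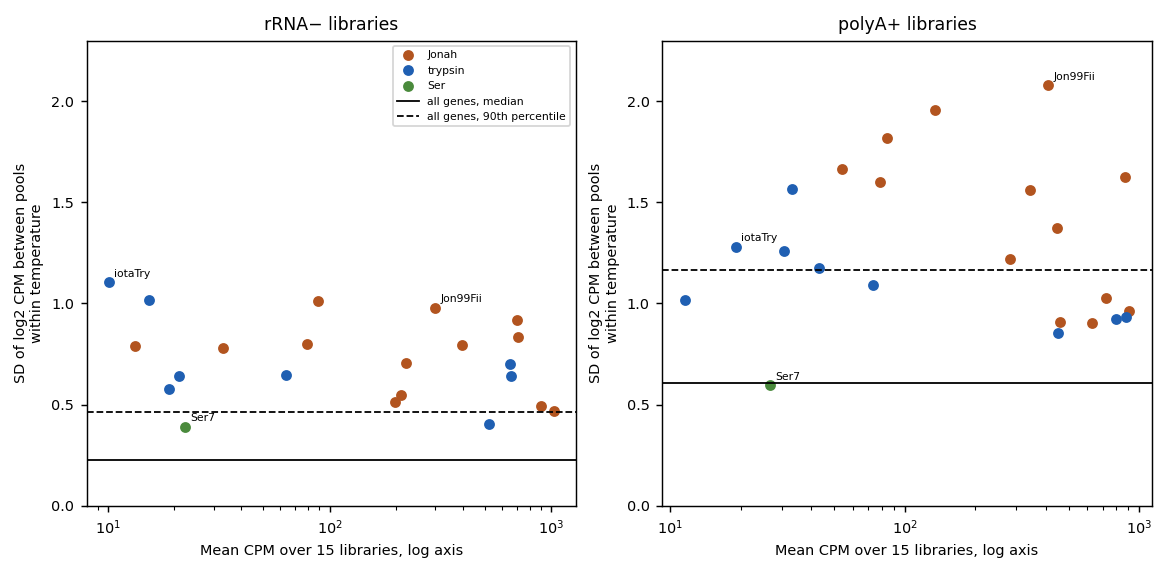
SD of log2 CPM between pools within temperature against mean CPM (log axis) for members of at least 10 CPM, in rRNA− (22 genes) and polyA+ (23 genes) libraries, with lines at the median and the 90th percentile of all genes of at least 10 CPM. All points lie above the median line in rRNA− libraries, and Ser7 is the lowest point in both.

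At some temperatures the same pool was the highest or the lowest for nearly all of these genes. At 25°C pool 2 was the lowest of 3 for 27 of 27 members in rRNA− libraries (37.6% of all genes) and for 26 of 28 in polyA+ libraries (46%). At 4°C pool 1 was the highest for 26 of 27 in rRNA− (39.7%) and 23 of 28 in polyA+ libraries (31%). At 37°C in polyA+ libraries pool 1 was highest for 26 of 28 (32.1%) and pool 3 lowest for 26 of 28 (35.7%), whereas in rRNA− libraries pool 1 was highest for 19 of 27 (35.5%). At 34°C in rRNA− libraries pool 2 was highest for 24 of 27 (32.2%), and pools 1, 2 and 3 were lowest for 13, 1 and 13. In polyA+ libraries at 34°C the order was less shared, with pools 1, 2 and 3 highest for 4, 14 and 10 of 28. At 10°C in polyA+ libraries pool 2 was highest for 24 of 28 (26%) and pool 3 lowest for 28 of 28 (43.6%). In rRNA− libraries at 10°C pool 1 was highest for 20 of 27 (37.3%), and pools 1, 2 and 3 were lowest for 1, 14 and 12. As a description over 15 libraries that share their depth and scaling, the median correlation of deviations from the temperature mean was 0.81 between 2 Jonah genes, 0.80 between 2 trypsins and 0.82 between a Jonah gene and a trypsin in rRNA− libraries, and 0.74, 0.83 and 0.77 in polyA+ libraries. Ser7 had a median of 0.43 with the other genes in rRNA− and of 0.46 in polyA+ libraries. The members are therefore not separate replicates of a comparison.

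Whether the 2 libraries of a pool share these deviations was tested for 3 genes, taking libraries of the same temperature and number as 1 pool, as the study draws them. For Jon65Aiv Pearson's r between the rRNA− and polyA+ deviations was 0.20 and Spearman's rho 0.18 over 15 pools (exact permutation of pools within temperatures, 7776 arrangements, 2-sided, p = 0.40 and 0.52, Benjamini-Hochberg adjusted over 3 genes 0.40 and 0.52). For alphaTry r was 0.49 and rho 0.42 (permutation p = 0.13 and 0.22, adjusted 0.20 and 0.33), and for Ser7 r was 0.62 and rho 0.59 (permutation p = 0.12 and 0.098, adjusted 0.20 and 0.29). Without the 2 pools farthest from the median r was 0.06, 0.35 and 0.46. An agreement between the libraries of a pool was thus not detectable for these 3 genes with 15 pools.

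Other digestive enzymes are given from a list of 33 genes of amylases, maltases, mannosidases, lysozymes and further proteases. In rRNA− libraries 2 of 28 tested were called higher at 10°C (LManV and LManVI, lysosomal alpha-mannosidase genes) and 7 at 37°C (Amy-d, LManI, LManII, LManV, LManVI, LysB and Mal-A3), by edgeR, where 0.875% and 2.06% of all genes were. At 4°C and 34°C 0 were called, with 1 and 12 genes at an unadjusted p under 0.05, against 4.12% and 21.8% of all genes. DESeq2 was not run for these lists. Their median log2 fold change was 0.05, 0.96, 0.73 and 0.90 at 4°C, 10°C, 34°C and 37°C. In polyA+ libraries 15 of 30 were called higher at 37°C, where 3.76% of all genes were, among them both amylases Amy-d and Amy-p and the protease genes yip7, Phae1 and Phae2, with a median of 3.89. Of 12 tested genes for CLIP-domain and dorsal-ventral serine proteases, which act in immunity and embryo patterning, 0 were called by edgeR at any temperature in either type, a count that shares of called genes of at most 3.76% would also give. At an unadjusted p under 0.05 there were 0 to 6, the 6 at 37°C in polyA+ libraries, where 26.2% of all genes were. Their medians ran from 0.26 to 0.37 in rRNA− libraries and from 0.22 to 0.74 in polyA+ libraries, and the difference from the digestive proteases was not tested.

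Markers of the midgut and of other cell types were measured in the same libraries. Of the 5 midgut enterocyte markers, the summed level was 103 to 120 CPM at 25°C in rRNA− libraries, 115 to 146 CPM at 4°C, 168 to 224 CPM at 10°C, 169 to 176 CPM at 34°C and 173 to 205 CPM at 37°C. Vha100-4, a proton pump subunit of the midgut, was called higher at 10°C, 34°C and 37°C, nub at 10°C and mex1 at 37°C, while nub at 37°C had a log2 fold change of 0.31 (SE 0.34, adjusted p = 0.69). In polyA+ libraries the sum was 38.6 to 43.3 CPM at 25°C, 43.8 to 53.8 CPM at 4°C, 31.2 to 72.6 CPM at 10°C, 37.9 to 112 CPM at 34°C and 55.6 to 191 CPM at 37°C. Most of the sum came on average from Myo31DF, at a mean of 107 CPM in rRNA− and 50.3 CPM in polyA+ libraries. In polyA+ libraries its log2 fold change was 0.05 at 10°C and 0.84 at 37°C. Those of mex1, Vha100-4 and Npc1b were 3.06, 2.97 and 4.6 at 10°C, with 0 called. At 37°C they were 5.07, 6.44 and 6.28, and mex1 (edgeR adjusted p = 0.017) and Vha100-4 (0.029) were called. The marker sum, in which Myo31DF weighs most, did not go with the proteases in every library. In polyA+ libraries at 10°C the marker sum was 31.2, 59.9 and 72.6 CPM in pools 1, 2 and 3, lowest in pool 1 and highest in pool 3, whereas the protease share was highest in pool 2 and lowest in pool 3. At 4°C in rRNA− libraries the mean marker sum was 127 CPM against 112 CPM at 25°C, whereas most proteases were below the control. In rRNA− libraries the 6 fat body markers summed to 29105 to 30445 CPM at 25°C and 45192 to 50531 CPM at 37°C. In polyA+ libraries they summed to 9601 to 12604 CPM and 24675 to 39349 CPM. Most of the sum came from the yolk protein genes Yp1, Yp2 and Yp3, at means of 17082, 8409 and 8812 CPM in rRNA− libraries. At 37°C 4 of 6 markers were above 0 in rRNA− libraries (median log2 fold change 0.39) and only Yp3 was called. In polyA+ libraries 5 of 6 were above 0 (median 1.31) and only Yp2 was called. The 4 ovary markers found summed to 3957 to 6201 CPM at 25°C and 2614 to 4498 CPM at 37°C in rRNA− libraries, which overlap, and to 3779 to 9930 CPM and 748 to 3951 CPM in polyA+ libraries, which overlap narrowly. The 4 muscle markers summed to 5245 to 8417 CPM at 25°C and 6464 to 7633 CPM at 37°C in rRNA− libraries, and to 1541 to 2327 CPM and 1898 to 15063 CPM in polyA+ libraries, with overlap in both. The 4 neuron markers summed to 281 to 372 CPM at 25°C and 237 to 300 CPM at 37°C in rRNA− libraries and to 10.9 to 16 CPM and 8.89 to 24.3 CPM in polyA+ libraries, with overlap in both. Ovary, muscle and neuron markers had 0 calls at 37°C in either type, with 1 gene at most of each list at an unadjusted p under 0.05 (edgeR). Of all genes 18.5% in rRNA− and 26.2% in polyA+ libraries had such a p at 37°C. The part of any of these markers in the protease levels was not tested.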

How the data were processed

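RNA was measured in 30 libraries from 15 pools of 6 flies. The values the authors deposited are raw counts of reads per gene, whole and not normalized. Per the labels, the authors' processing used STAR 2.7.7a, SAMtools, Salmon 1.4.0, R 4.2.2 and DESeq2 on the dm6 build, and which of STAR or Salmon gave the counts is not given in the sources used here. Both tables list 17807 genes, and 0.545% of identifiers had no symbol. Identical columns were sought in 30 replicate pairs and 0 were found. The polyA+ kit is named differently in the records and the methods.

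Tests used edgeR 4.0.16 in R 4.3.3 (limma 3.58.1): filterByExpr, TMM, robust quasi-likelihood fits of the 15 libraries of a type, with DESeq2 1.42.0 as an alternative. SEs were approximated from the F statistic. log2 CPM used a prior count of 2. The replicates are pools with 1 library of each type, so p-values within a type measure the spread of pools and of library preparation together. With 200 genes changed 4-fold in simulated data at 37°C, edgeR recovered 94% in rRNA− (9718 genes, 3 false calls) and 17.5% in polyA+ libraries (9257 genes, 2 false calls). DESeq2 recovered 95.5% (9625 genes, 19 false calls) and 61.5% (9134 genes, 31 false calls). The changed genes were drawn from all genes above a minimum mean count, each with its own spread. Most digestive proteases varied more within a temperature than the median gene, so these rates do not give the power for them. Replicate numbers were checked as pairs: 7 of 24 correlations between same-numbered samples were above 0.1 (-0.442 to 0.417), so the numbers were not taken to pair samples across temperatures.

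The genes and lists were chosen with earlier results of these data known. Named genes were the 3 most abundant Jonah genes and trypsins and the most abundant Ser gene by TPM of equalized counts in rRNA− libraries. Also named were up to 6 called genes of smallest p per comparison, and the genes of largest and smallest spread. Others named were chosen after their values were seen. Alternatives were full counts, 150 bp polyA+ reads, DESeq2 size factors, library totals, no filter, DESeq2, only the groups compared, 1 fit of all libraries, a replicate block and leaving out each pool. Sequence overlap between copies was not analysed here. Plots used matplotlib 3.10.9.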

Additional observations from a re-analysis of the deposited data

How the results depend on the processing

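The fold changes of members called against 25°C kept their sign in every alternative run for them, while counts of calls moved. Single fold changes for the library type were not compared across alternatives. Counts are members called. The share of all genes called in each alternative is not given here, so a rise or fall of these counts cannot be set against a background. For rRNA− libraries at 10°C (2) there were 1 without the filter, 8 with DESeq2, 6 with only the groups compared and 0 in 1 fit of all libraries, at 34°C (0) 6 with DESeq2, and at 37°C (3) 10 with DESeq2, 10 with only the groups compared and 1 in the fit of all libraries. For heat against cold (0) there were 2 with DESeq2 and 1 with only the groups compared, and for any temperature (2) 14 with DESeq2 and 0 in the fit of all libraries. For polyA+ libraries at 10°C (0) there were 8 with DESeq2, at 34°C (0) 3 with DESeq2 and 1 in the fit of all libraries, and at 37°C (12) 1 with library totals, 24 with DESeq2, 19 with only the groups compared, 25 in the fit of all libraries and 0 with the 10 libraries of high histone share, a set chosen after seeing the data whose 1 library at 37°C leaves little room for a call. For heat against cold (0) there were 10 with DESeq2 and 15 in the fit of all libraries, and for any temperature (3) 0 with library totals, 5 without the filter, 21 with DESeq2, 21 in the fit of all libraries and 0 with the 10 libraries. The interaction at 37°C (0) gave 2 with DESeq2, and the library type (6) 3 with library totals. DESeq2 size factors, full counts and 150 bp reads left each count within 1.5 times. With the replicate block the counts in rRNA− libraries were 4 at 10°C, 1 for heat against cold and 4 for any temperature, in polyA+ libraries 0 for any temperature and 9 at 37°C, and 3 for the library type with the pool as the block; same-numbered pools share only a number across temperatures.

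Leaving out 1 pool gave ranges of 0 to 5 at 10°C, 0 to 2 at 34°C, 0 to 4 at 37°C, 0 to 6 for heat against cold and 0 to 15 for any temperature in rRNA− libraries. In polyA+ libraries they were 0 to 19 at 37°C, 0 to 4 for heat against cold and 0 to 17 for any temperature. For the interaction at 37°C the range was 0 to 3 and for the library type 3 to 7. For any temperature the highest counts were those without pool 1 at 4°C (rRNA−) and without pool 3 at 10°C (polyA+). Pool agreement stayed short of the threshold with full counts and library totals. Depth limits Ser6, Ser8 and Ser12, which held few equalized counts. deltaTry is limited by reads left out of the equalized table, with 192 of 1765 full counts kept in rRNA− and 199 of 8102 in polyA+ libraries. In polyA+ libraries the spread between libraries of a temperature limits what can be called.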
